A study of Mus musculus with 2 samples.

Results

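The cells described here came from sorted CD4 T cells of visceral fat (VAT, the depots that surround the organs of the abdomen) in mice, and carried transcripts of at least 2 of 6 genes: Slamf6, Cd200, Tbc1d4, Cd9, Tnfsf8 and Gpm6b. They also had no transcript of Ccr7, Dapl1, Foxp3, Il1rl1, Ccl5 or Nkg7, which mark naive, regulatory, ST2-positive and cytotoxic or type 1 cells. By this rule 475 of 13191 kept cells were members, 292 in the library from wild-type C57BL/6 mice (WT) and 183 in the library from mice lacking CD27 (CD27_KO). Members were chosen by detection of these 12 genes in the same molecule counts that are described below, so their levels are a description of the choice and not a finding.

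The sort took TCRb+ CD4+ cells of the stromal vascular fraction, what is left of fat tissue once the adipocytes are removed, and their RNA was sequenced cell by cell in droplets. Each group is 1 library of pooled mice; the labels give 10 mice, without saying whether that is per pool. Both libraries have the same genotype entry, so the group rests on the title, and the labels do not give age, sex or the part of Cd27 that the mutation removes. With 1 library per group there was no spread between mice, so no test was run. Intervals below are exact 95% intervals that cover counting error only, and those of summed molecules are too narrow where many molecules of a gene lie in few cells.

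Memory CD4 T cells are cells that have met antigen and persist, either circulating between blood, lymph and tissue or resident in one organ. SLAMF6 is a self-binding receptor of the SLAM family that signals through the adaptor SAP, the product of Sh2d1a. CD200 is a surface protein that calms myeloid cells bearing its receptor. TBC1D4 is a Rab GTPase-activating protein of insulin and AKT signalling, CD9 is a tetraspanin that associates with integrins, TNFSF8 is the ligand of CD30 (Tnfrsf8), and Gpm6b encodes a membrane glycoprotein of the proteolipid family. CD27, which CD70 engages, belongs to the TNF receptor family and costimulates T cells, supporting the survival of activated and memory cells.

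Member cells took a smaller share of the CD27_KO library. They were 4.61% of the 6338 kept WT cells (interval 4.10 to 5.15) and 2.67% of the 6853 kept CD27_KO cells (2.30 to 3.08), a ratio of 0.580 (0.479 to 0.700). Among cells without any of the 6 barred transcripts, the shares were 20.1% and 12.7%, a ratio of 0.631 (0.521 to 0.761). Unmarked cells, which lacked the barred transcripts and had 0 or 1 of the 6 markers, took 18.3% of WT and 18.4% of CD27_KO cells. Other groups differed too: Ccr7 or Dapl1 cells took 14.6% and 3.87%, Foxp3 cells 9.88% and 4.71%, Il1rl1 cells 15.2% and 25.4%, and Ccl5 or Nkg7 cells 37.4% and 44.9%. Since shares of a library add up to the whole, they do not vary independently.

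Depth bears on the rule from both sides, since a deeper cell is more likely to show a marker and also a barred transcript. Members had median totals of 1791.5 (WT) and 2266 (CD27_KO) unique molecular identifiers (UMIs, each standing for 1 captured RNA molecule). Unmarked cells had 1657.5 and 1833. In all, 1063 WT (16.8%) and 785 CD27_KO cells (11.5%) carried at least 2 markers. Of these, 771 and 602 also carried a barred transcript, with medians of 3742 and 4151 UMIs. The share with at least 2 markers was 23.6% and 17.6% in Foxp3 cells and 14.9% and 12.8% in Il1rl1 cells. It was 13.5% and 8.25% in Ccl5 or Nkg7 cells, but 17.2% and 25.7% in Ccr7 or Dapl1 cells. Whether fewer such cells or fewer marker transcripts per cell lowered the member share was not tested. With each cell thinned to 1300 UMIs the member shares were 3.66% and 1.85%, still lower in CD27_KO.

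Some members carried transcripts of other cell types. Marker genes of B cells, plasmacytoid and other dendritic cells, macrophages and stromal cells were detected together, at 4 or more per cell, in 12 WT and 9 CD27_KO members, while every other member had at most 3. Of these 21 cells, 5 WT and 8 CD27_KO had no UMI of Cd3 or T cell receptor constant genes. They had entered mainly through Cd9 (10 WT and 5 CD27_KO cells) and Cd200 (9 and 7), which B and stromal cells can also transcribe, and none carried Tnfsf8. All of the other 280 WT and 174 CD27_KO members had a Cd3 or T cell receptor constant transcript. Without the 21 cells and their counterparts among all kept cells, the shares were 4.52% and 2.58%, a ratio of 0.570 (0.469 to 0.692). Values below leave out such cells from every group unless said otherwise, a choice made after these cells were seen.

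Slamf6 was the marker that most members shared. It was detected in 216 of 280 WT members (77.1%, interval 71.8 to 81.9) and 135 of 174 CD27_KO members (77.6%, 70.7 to 83.5). Tnfsf8 was in 43.9% and 46.6%, and Tbc1d4 in 41.8% (35.9 to 47.8) and 49.4% (41.8 to 57.1). Cd9 was in 37.9% of WT (32.2 to 43.8) and 27.0% of CD27_KO members (20.6 to 34.3), Cd200 in 27.1% and 23.0%, and Gpm6b in 17.9% (13.6 to 22.9) and 9.77% (5.80 to 15.2). These shares are set in part by the rule and describe the members only.

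Cells with both Slamf6 and Cd200 were a minority of the members. Over all 475, they numbered 56 of 292 in WT (19.2%) and 25 of 183 in CD27_KO (13.7%). The most frequent pair was Slamf6 with Tbc1d4, in 85 WT and 58 CD27_KO members, followed by Slamf6 with Tnfsf8, in 80 and 58. Exactly 2 markers were seen in 198 WT and 131 CD27_KO members, and 5 markers in 8 and 0. Just outside the rule stood 461 WT and 435 CD27_KO cells with 1 marker and no barred transcript, and 124 and 89 cells with 2 or more markers and a single UMI of a barred transcript. In mm10 (GENCODE vM21) the marker genes lie on separate chromosomes: Slamf6 on chromosome 1 (171917515 to 171953170), Tnfsf8 on 4 (63831308 to 63861347), Cd9 on 6 (125460266 to 125494791), Tbc1d4 on 14 (101442360 to 101609191), Cd200 on 16 (45382135 to 45409053) and Gpm6b on X (166238911 to 166388988).

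**Figure D1:**
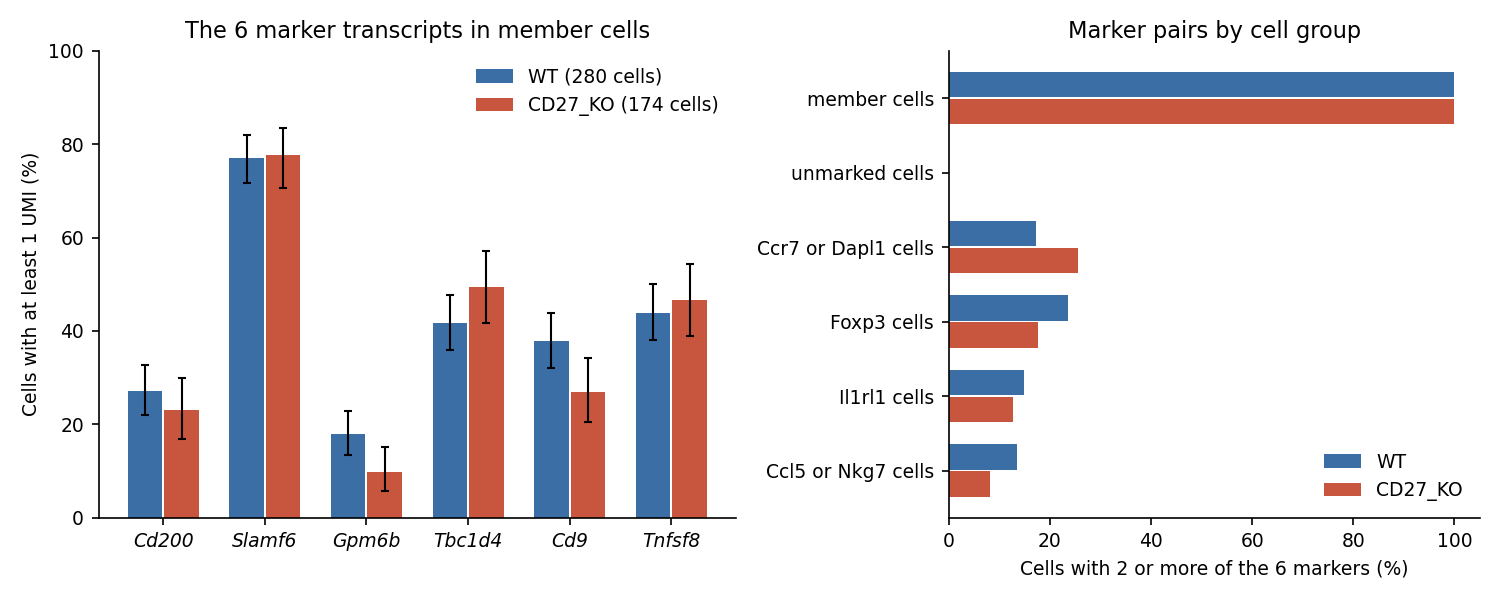
Left: share of member cells (%, without the 21 cells of other types) with at least 1 UMI of each marker in the WT and CD27_KO libraries, with exact 95% intervals as error bars. Right: share of cells (%) with 2 or more of the 6 markers in each cell group, where members are at 100 and unmarked cells at 0 by the rule. Slamf6 stands at 77.1% and 77.6%, and marker pairs were also found in 8.25% to 25.7% of cells of the barred groups.

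The targeted gene was checked in the same cells. Cd27 (chromosome 6, 125232622 to 125237010) gave 85 UMIs in 68 of 292 WT members (23.3%, 18.6 to 28.6) and no UMI in 183 CD27_KO members, which allows a share of up to 1.64% of cells with a UMI (3 counts of the total), not of cells expressing the gene. Over all kept cells it was in 1615 WT and 14 CD27_KO cells. Neither its ligand gene Cd70 nor Tnfrsf8, the receptor gene for the marker Tnfsf8, gave a UMI in any member. Cd4 gave 100 UMIs in WT and 70 in CD27_KO members.

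Members were set beside the unmarked cells of their own library, to see what else they carried. UMIs were summed over the cells of each kind and divided by the sum of all their UMIs, in the unit CPM (counts per 1000000). Genes with at least 100 UMIs over both kinds of cell were measured, and one was called apart where the CPM differed by 1.5-fold or more in the same direction in both libraries. Members were higher for 18 of 2835 measured genes (0.635%) and lower for 44 (1.55%), with the 12 rule genes left out. With all 475 members the counts were 21 of 3088 (0.68%) and 44 (1.42%). The genes named by rule on each side follow.

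Of the genes higher in members, Pgap1, which encodes an enzyme that remodels lipid anchors of surface proteins, had 83.5 CPM in WT members against 31.8 in unmarked cells, and 117 against 42.2 in CD27_KO. Its log2 ratios were 1.39 (0.81 to 1.96) in WT and 1.47 (0.95 to 1.98) in CD27_KO. Pou2f2, the gene of the lymphocyte transcription factor OCT2, was at 1.05 and 1.19, and Prkca, the gene of protein kinase C alpha, at 0.91 and 0.97. Sh2d1a, whose product SAP binds the tail of SLAMF6, had 199.7 CPM in WT members against 98.0 in unmarked cells and 134 against 82.4 in CD27_KO. Its log2 ratios were 1.03 (0.68 to 1.37) and 0.70 (0.25 to 1.13). Of the listed SLAM family genes and adaptors, Sh2d1a was the only one apart among 8 measured. Set beside all the groups, Pgap1, Prkca and Sh2d1a were highest in members in both libraries. For Sh2d1a in CD27_KO this was 134 against 126 CPM in Ccr7 or Dapl1 cells. Pou2f2 reached a similar level in Foxp3 cells, at 100 CPM in WT and 122 in CD27_KO, against 114 and 110 in members.

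Trps1, a zinc finger repressor gene, was at 1.71 in WT and 0.93 in CD27_KO, and Eea1, the gene of an early endosome tether, at 2.60 (2.11 to 3.10) and 0.71 (0.12 to 1.27). Tox, the gene of a nuclear factor of persistently stimulated and follicular helper T cells, was at 1.37 (1.01 to 1.73) and 0.70, but the CD27_KO interval (-0.06 to 1.39) spanned no difference. Itga4, the gene of the alpha-4 integrin used for adhesion to vessels, was higher by 0.65 and 0.79. Ifi27l2a, an interferon-induced gene, was higher by 0.66 and 0.84, and it was the single one apart of 7 measured interferon response genes. In Foxp3 cells Itga4 was at 434 CPM in WT and 429 in CD27_KO, against 427 and 593 in members. Ifi27l2a was at 1215 and 1099 CPM there, against 1371 and 1252. The remaining named genes higher in both libraries were Rnf19a, Adk, Bub3, Arhgap5, Trp53inp1, Sidt1 and Atf7ip, with log2 ratios from 0.61 to 1.02.

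Of the genes lower in members, Cxcl2, a neutrophil chemokine gene, had 9.08 CPM in WT members against 339 in unmarked cells and 7.17 against 80.8 in CD27_KO. This was 37.4-fold and 11.3-fold lower, although the CD27_KO value rests on 3 member UMIs (log2 -3.49, -5.78 to -1.93). Csf2, which encodes the growth factor GM-CSF, had no UMI in WT members against 191 in unmarked cells. With a floor of 3 counts over the group it was at least 17.4-fold lower. In CD27_KO it had 5 UMIs against 210. Klrg1, a receptor gene of differentiated effector cells, had 1 UMI in WT and 5 in CD27_KO members (log2 -5.04, -10.4 to -2.53, and -1.81, -3.46 to -0.54). Ccr7 or Dapl1 cells were also below unmarked cells for Cxcl2, Csf2 and Klrg1 in both libraries. In WT they were above members for each of these genes, with Cxcl2 at 46.6 CPM. In CD27_KO they were below members, with Csf2 at 1.64 against 11.95 CPM and no UMI of Cxcl2 or Klrg1. Cxcl2 was highest in WT Foxp3 and Il1rl1 cells, at 2210 and 2293 CPM. The cytokine genes Ifng and Tnf were not apart in both libraries. Ifng was higher in WT members (70.8 against 29.8 CPM) but not in CD27_KO (55.0 against 71.1). Tnf had 39.9 against 56.7 CPM in WT and 33.5 against 56.8 in CD27_KO. With all 475 members Tnf was called lower in both libraries, so its call turns on the cells left out.

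Areg, the gene of the repair factor amphiregulin, was at -1.58 in WT and -1.67 in CD27_KO, and Il2ra, the high-affinity IL-2 receptor subunit gene, at -1.45 and -1.89. Together with Klrg1 these were 3 of 8 measured Treg-associated genes, none of which was higher. Low Areg and Il2ra were not particular to members. In Ccr7 or Dapl1 cells Areg had 18.0 CPM in WT and 6.56 in CD27_KO, against 76.2 and 28.7 in members. Il2ra had 19.5 and 9.84 CPM in the same cells, against 27.2 and 16.7. Areg was highest in Foxp3 and Il1rl1 cells, at 1274 and 1150 CPM in WT. Of 9 measured residency genes, 4 were lower in members: Cxcr6 (-3.83 and -0.85), Cd69 (-0.998 and -1.20), Rgs2 (-0.96 and -1.03) and Nr4a1 (-1.06 and -0.72), while Itga4 was higher. The WT value of Cxcr6 rests on 3 member UMIs (5.45 CPM), and WT Ccr7 or Dapl1 cells had 6.01 CPM. Ccr7 or Dapl1 cells were below members for Rgs2 (91.6 CPM in WT and 103 in CD27_KO, against 109 and 151). So they were for Nr4a1 (68.6 and 59.0 against 78.1 and 112). For Cd69 they had 136 and 267 CPM, against 143 and 184 in members. CD69 holds T cells in tissue by opposing the egress receptor S1PR1, and CXCR6 is a chemokine receptor of resident T cells. Of 13 measured dissociation and immediate early genes, 3 were lower, among them Zfp36 (-1.03 and -1.19). Nfkbia, an NF-kB feedback inhibitor gene, was at -0.77 and -1.39, and Gadd45b, a stress-induced gene, at -1.68 and -1.36. Because tissue handling also induces such genes, their level at sampling and their level in the tissue cannot be told apart.

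None of the 13 measured memory and stem-like genes was apart in both libraries, although their median log2 ratio was 0.16 in WT and 0.48 in CD27_KO, against 0.05 and -0.05 over all measured genes. S1pr1, the gene of the egress receptor, showed the library difference most plainly. It had 586 CPM in members of both libraries, against 429 in WT and 220.5 in CD27_KO unmarked cells, with log2 ratios of 0.45 (0.26 to 0.64) and 1.41 (1.19 to 1.63). Klf2, the transcription factor that drives S1pr1, was at 0.16 and 0.90. Itgb1, the beta-1 integrin gene, went the other way, at 1.32 in WT and 0.49 in CD27_KO, with 809.6 and 868 CPM in members against 325 and 619.6 in unmarked cells. For S1pr1 and Itgb1 the members of both libraries were thus close, and the unmarked cells were further apart. Lists of glycolysis (8 measured) and of insulin and AKT signalling around TBC1D4 (8 measured) held no gene apart, nor did 6 genes of the TNF receptor family and its ligands, 6 of CD200 and tetraspanin partners, 6 type 1 genes, 19 of oxidative phosphorylation, 4 of fatty acid handling and 10 of survival. In the remaining lists the genes lower in members were Ltb4r1 (1 of 5 type 17 genes), Csf2 (1 of 5 type 2 genes), Ccr2 and Cxcr6 (2 of 8 chemokine receptors), Il2ra and Ifngr1 (2 of 14 cytokine receptors), Nr4a1 and Cd69 (2 of 15 T cell receptor signalling genes), Nfkbia (1 of 8 TRAF and NF-kB genes), Stmn1 (1 of 4 cell cycle genes) and Cd69 (1 of 7 genes near Cd27). Tox and Sh2d1a were the 2 of 7 follicular helper-like genes higher in members, and Tox the 1 of 11 costimulation, inhibition and anergy genes.

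**Figure D2:**
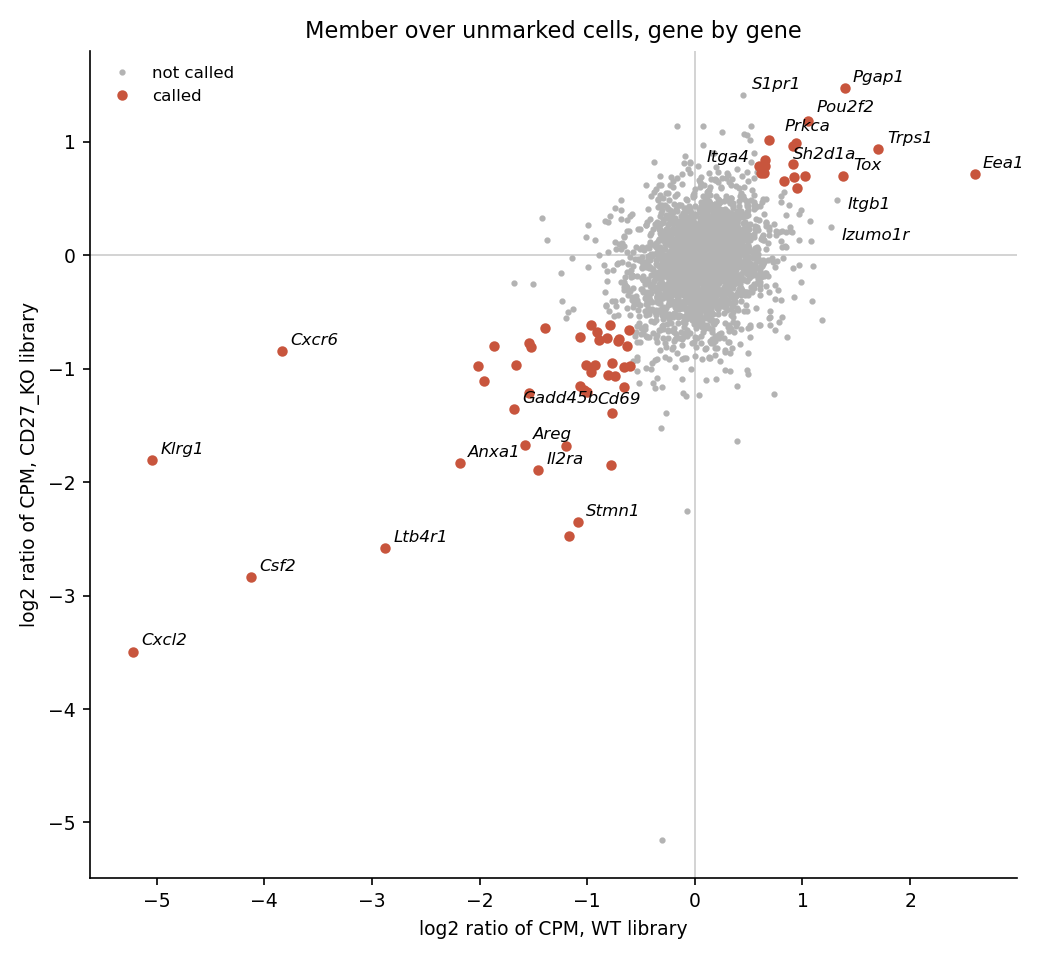
Each point is 1 of the 2835 measured genes, plotted by its log2 ratio of CPM in member over unmarked cells in the WT library (x axis) and in the CD27_KO library (y axis), without cells of other types. Red points are the genes 1.5-fold apart in the same direction in both libraries, 18 higher and 44 lower, and Csf2 is placed at the floor of 3 counts in WT.

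Members were next set beside the Ccr7 or Dapl1 cells, the group that holds naive-type cells, a comparison chosen with its genes after values were seen. The rule bars Ccr7 and Dapl1 from members, while each cell of this group has at least 1 of them. Lower naive genes in members thus follow in part from the rule. Members were higher for 88 of 1204 measured genes (7.31%) and lower for 13 (1.08%). With all members these were 95 of 1269 (7.49%) and 15 (1.18%). The median gene was itself 0.20 higher in WT and 0.16 in CD27_KO members, and ribosomal protein genes took 35.9% and 32.5% of member UMIs against 45.3% and 40.4% in Ccr7 or Dapl1 cells. Centred on the median gene the split was 54 higher and 33 lower, and with ribosomal and mitochondrial genes out of the totals 50 and 43. Scaling and a difference in ribosomal content cannot be told apart here. The genes named next kept their side of 1.5-fold under both of these scalings.

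Of the genes higher in members, Maf, a transcription factor gene of effector and follicular helper cells, had 414 CPM in WT members against 68.1 in Ccr7 or Dapl1 cells, and 488 against 119.7 in CD27_KO, log2 ratios of 2.60 (2.29 to 2.92) and 2.03 (1.63 to 2.43). Itgb1 had 809.6 against 183 and 868 against 267 CPM (2.14 and 1.70). S100a6 (2.08 and 2.43) and S100a4 (2.17 and 1.91), calcium-binding protein genes of antigen-experienced T cells, and Ahnak (1.96 and 2.24), a scaffold protein gene, were also higher. So were Il2rb (1.39 and 2.09), the receptor subunit gene for IL-2 and IL-15, and Rora (1.39 and 2.94). On the lower side stood Igfbp4 (-2.40 and -3.61), Satb1 (-1.32 and -2.17), Lef1 (-1.12 and -2.05) and Actn1 (-0.91 and -2.12). LEF1 and SATB1 are nuclear factors of naive T cells. Unmarked cells, which also lack Ccr7 and Dapl1, had Lef1 at 301 CPM in WT and 156 in CD27_KO, against 243 and 160 in members. Their Maf was at 236 and 463 CPM, and Foxp3 cells had 439 and 837.

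Shares of cells with a transcript were compared after thinning each cell to 1300 UMIs, which left 257 WT and 173 CD27_KO members and dropped 23 and 1. The transcripts were picked after values were seen. Members lay close to the Ccr7 or Dapl1 cells in S1pr1, seen in 45.5% of WT (39.3 to 51.8) and 50.3% of CD27_KO members (42.6 to 58.0) against 45.3% and 50.4%. Before thinning, S1pr1 was in 56.1% and 60.9% of members. Tcf7, the gene of the stem-like factor TCF1, was in 31.5% and 37.6% of members against 32.7% and 45.1%, and Il7r, the survival receptor gene for IL-7, in 65.4% and 74.0% against 65.9% and 77.7%. The same transcripts were scarcer in Foxp3, Il1rl1 and Ccl5 or Nkg7 cells for S1pr1 (12.1% to 21.5%) and Tcf7 (8.53% to 23.8%), but not for Il7r in Foxp3 and Il1rl1 cells (63.0% to 77.1%).

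Lef1 was less frequent in members than in that group, a contrast shaped in part by the rule. Lef1 was in 23.0% of WT (18.0 to 28.6) and 18.5% of CD27_KO members (13.0 to 25.1) but in 48.4% and 58.0% of Ccr7 or Dapl1 cells. Itgb1 was in 48.6% and 54.3% of members against 12.3% and 18.2%, and 57.7% and 63.7% of Ccl5 or Nkg7 cells. Cd69 was in 14.8% and 16.2% of members, and in 24.7% and 33.7% of unmarked cells. Cd44, an activation marker gene, was in 11.3% and 13.3% of members against 2.93% and 6.06% of Ccr7 or Dapl1 cells.

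The label of memory cells thus had transcripts on both sides: the egress and stem-like genes were at the level of Ccr7 or Dapl1 cells, the naive gene Lef1 was lower but present, and Itgb1, Maf and S100a4 were higher. All these contrasts are with Ccr7 or Dapl1 cells and are shaped in part by the rule. In CD27_KO, unmarked cells were close to members in Lef1 and Maf. Cells of the naive type in which Ccr7 and Dapl1 were missed by chance would pass the rule, and how many there are was not tested. Of the genes of follicular helper T cells, Cxcr5, Bcl6 and Il21 were detected in few members. Before thinning, Cxcr5 was in 1.07% of WT and 1.15% of CD27_KO members, Bcl6 in 2.50% (1.01 to 5.08) and none of 174 CD27_KO members, and Il21 in 9 WT members (3.21%, 1.48 to 6.01) and no CD27_KO member, which allows up to 1.72% of cells with a UMI by the same 3 counts. Other genes of that list, which are not exclusive to those cells, were more common: Sh2d1a in 26.1% and 21.3%, and Izumo1r, the folate receptor 4 gene, in 22.1% (17.4 to 27.5) and 13.8% (9.04 to 19.8). The 8 follicular helper markers summed to 488 CPM in WT members against 203 in unmarked cells, and to 234 against 159 in CD27_KO. Il21 had no UMI in the 1117 unmarked WT cells, but was detected among unmarked CD27_KO cells. Of 7 NKT and MAIT cell markers, 4 were at 0 in WT members, among them the transcription factor gene Zbtb16, and 5 in CD27_KO members. The list summed to 17 UMIs in 7 WT members (30.9 CPM, against 5.97 in unmarked cells) and to 3 UMIs in 3 CD27_KO members (7.17 CPM against 12.6), and its part in the results was not tested. Of the CD8 T cell markers, Cd8a was at 0 and the other gave 2 UMIs in WT and 3 in CD27_KO members.

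**Figure D3:**
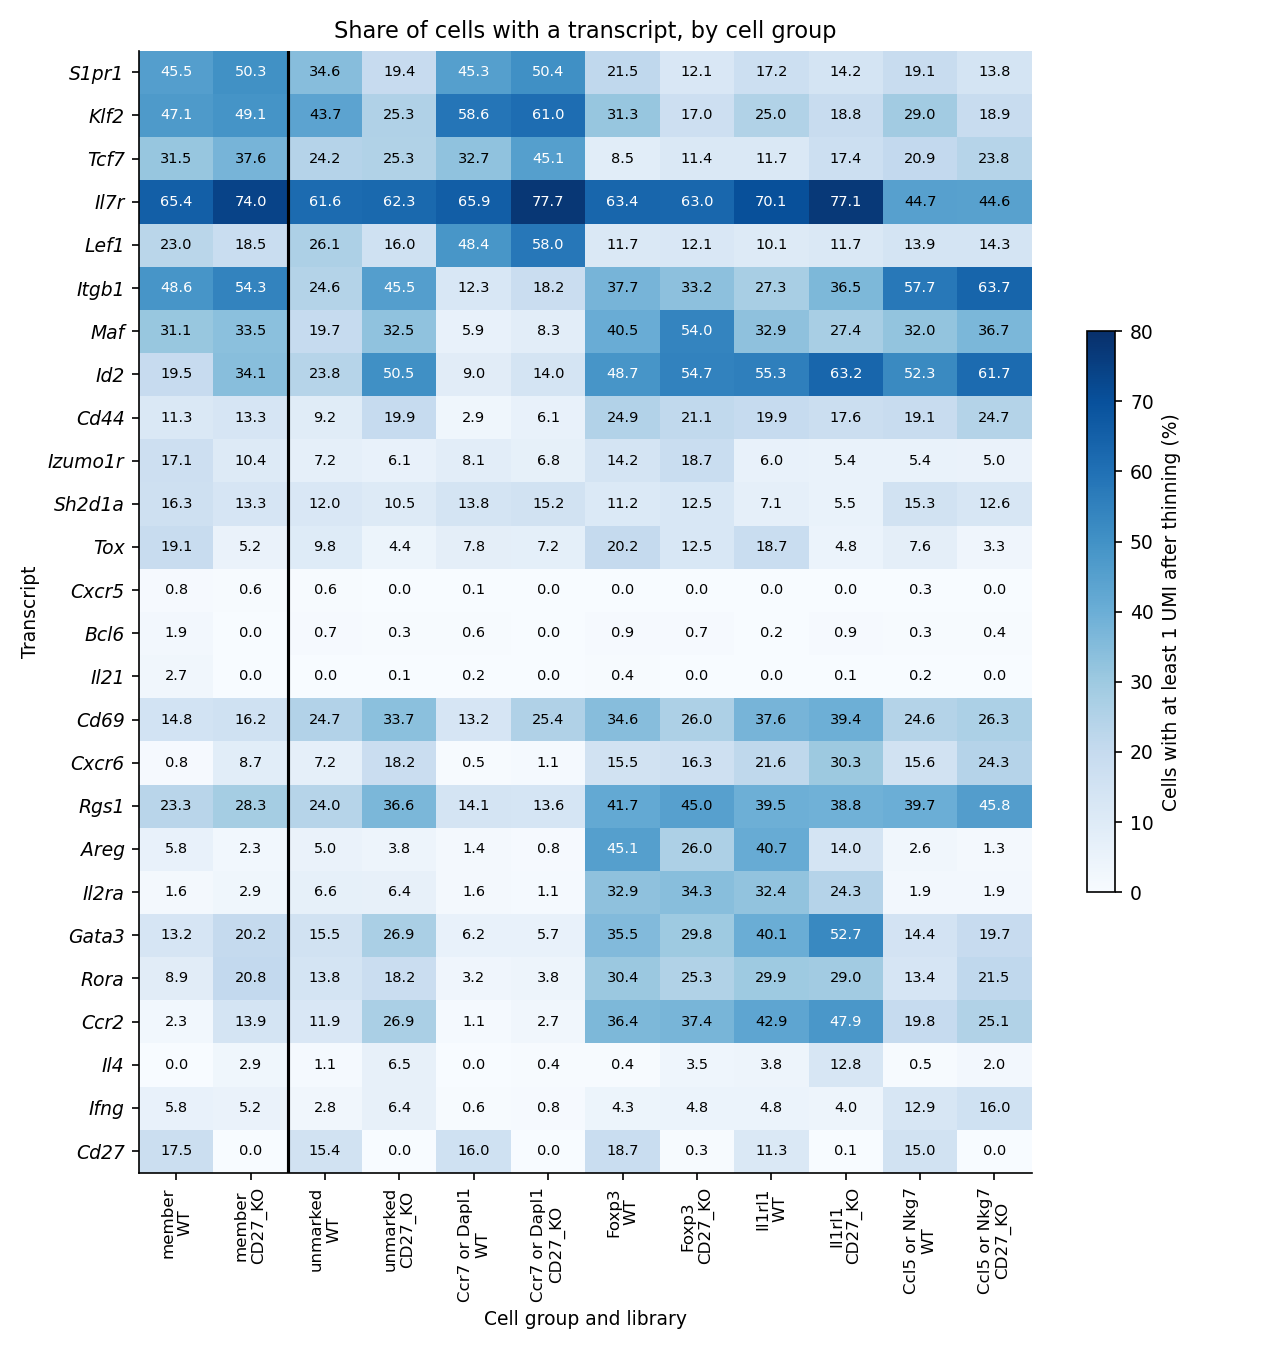
Share of cells (%, colour and printed number) with at least 1 UMI of each transcript after thinning every cell to 1300 UMIs, for 6 cell groups in the WT and CD27_KO libraries, without cells of other types. Members are the first pair of columns, with S1pr1 at 45.5% and 50.3%, near the Ccr7 or Dapl1 cells, and Itgb1 at 48.6% and 54.3%, above them.

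Members also differed among themselves. In WT, the 91 members with 3 or more markers carried Tox in 36.3%, Sh2d1a in 39.6% and Pdcd1, the gene of the inhibitory receptor PD-1, in 15.4%, against 18.5%, 19.6% and 2.65% of the 189 members with 2 markers. The median depths were 1867 and 1726 UMIs. Lef1 went the other way in WT, in 11.0% and 34.9%. In CD27_KO, with 51 and 123 such members, none of these 4 transcripts differed this much: Tox was in 11.8% and 9.76%, Sh2d1a in 23.5% and 20.3%, Pdcd1 in 5.88% and 4.88% and Lef1 in 29.4% and 26.0%. Itgb1 was more common with 3 or more markers in both libraries, at 63.7% against 50.8% in WT and 86.3% against 60.2% in CD27_KO. S1pr1 was in 56.6% of WT members with 2 markers and in 54.95% of those with more, and in 54.5% and 76.5% of the CD27_KO ones.

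Cells with both namesake genes resembled the other WT members in S1pr1 (58.9% of 56 cells) and Klf2 (64.3%), and carried Izumo1r (35.7%), Ikzf2 (39.3%) and Cd27 (35.7%) more often than the members as a whole (22.1%, 24.3% and 23.6%). Their median depth of 1614 UMIs was below that of all WT members. In CD27_KO there were 23 such cells, too few to order their shares. Gpm6b-positive WT members, 50 in number, showed Lef1 in 6.00%, Maf in 52.0% and Ifng, the type 1 cytokine gene, in 18.0%. Cells of 1 library share their source, so these shares describe the libraries.

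Members of the CD27_KO library were then compared with those of WT. Over all members, CD27_KO was higher by 1.5-fold or more for 96 of 1388 measured genes (6.92%) and lower by as much for 55 (3.96%). Without the 21 cells of other types, 63 of 1183 were higher (5.33%) and 26 lower (2.2%), and 48 of the higher and 15 of the lower genes were shared with the first count. Centred on the median gene, the counts without those cells were 42 higher and 37 lower, and 41 and 38 with ribosomal and mitochondrial genes out of the totals. The median gene was at 0.06, against 0.08 in all other kept cells of the same libraries. The libraries that give the members also give the other cells, so both sets of values share any difference between libraries.

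Among the genes higher in CD27_KO members were Rora, Gata3, Id2, Cd226 and Runx3. Rora, a nuclear receptor gene of type 2 and type 17 lymphocytes, gave 47 UMIs in WT (85.3 CPM) and 100 in CD27_KO members (239 CPM), a log2 ratio of 1.49 (0.97 to 2.02) against 0.42 in all other cells. Gata3, the master regulator of type 2 cells, gave 58 and 96 UMIs (105.3 and 229 CPM), a ratio of 1.12 (0.64 to 1.62) against 0.62. Id2, an inhibitor of E proteins that marks effector differentiation, gave 232 and 461 CPM, at 0.99 (0.66 to 1.32) against 0.60. Cd226, a costimulatory receptor gene, was at 1.15 (0.55 to 1.77), Trat1, the gene of a T cell receptor adaptor, at 1.13 against 1.21 in other cells, and Runx3, a residency and type 1 regulator gene, at 0.91. Ifngr1, the interferon-gamma receptor gene, was at 0.75, Ly6a at 0.67 and the chromatin protein gene Hmgb2 at 0.84, while Serinc3, Dnajc15, Tln1, Wac and Dusp5 were between 0.87 and 1.11. In unmarked cells of WT and CD27_KO, Id2 had 312 and 759 CPM, Cd226 94.5 and 205 and Runx3 58.2 and 99.5. Ifngr1 had 348 and 602 CPM there, Ly6a 284 and 611 and Hmgb2 674 and 1264. Higher levels in CD27_KO were thus not particular to members for these genes. Rora (137 and 192 CPM) and Gata3 (176 and 303) also rose in unmarked cells, by a smaller ratio than in members.

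Members with these transcripts were also more frequent. After thinning, Rora was in 8.95% of WT (5.76 to 13.1) and 20.8% of CD27_KO members (15.02 to 27.6), and Id2 in 19.5% (14.8 to 24.8) and 34.1% (27.1 to 41.7). Gata3 was in 13.2% (9.34 to 18.0) and 20.2% (14.5 to 27.0), intervals that overlap. The shares in Ccr7 or Dapl1 cells, taken as a background, were 3.16% and 3.79% for Rora, 9.03% and 14.0% for Id2 and 6.21% and 5.68% for Gata3. The lineage cytokine Il4 was in 1 WT (0.357%) and 9 CD27_KO members (5.17%, 2.39 to 9.59) before thinning, too few for a ratio.

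The chemokine receptor genes Ccr2 and Cxcr6 had few UMIs, and none of the 4 measured genes of that list was apart (median -0.02). Ccr2, a receptor gene for monocyte chemoattractants, gave 19 UMIs in 11 WT members and 73 UMIs in 37 CD27_KO members, 5.06-fold higher in CPM (3.02 to 8.88), below the minimum of 100 UMIs. Over all members it gave a log2 ratio of 2.53 and passed. Cxcr6 gave 3 UMIs in WT and 41 in CD27_KO members, a ratio of 18.0 (5.74 to 90.8). After thinning, Ccr2 was in 2.33% of WT (0.861 to 5.01) and 13.9% of CD27_KO members (9.10 to 19.9), and Cxcr6 in 0.778% (0.0944 to 2.78) and 8.67% (4.93 to 13.9). Both were rarer in Ccr7 or Dapl1 cells of CD27_KO, at 2.65% and 1.14%, and more common in its unmarked cells, at 26.9% and 18.2%.

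On the lower side stood Tox, Izumo1r and Ikzf2. Tox gave 110 UMIs in 68 of 280 WT members (199.7 CPM) and 22 UMIs in 18 of 174 CD27_KO members (52.6 CPM), a log2 ratio of -1.93 (-2.66 to -1.26) against -1.54 in other cells. After thinning it was in 19.1% of WT (14.5 to 24.4) and 5.20% of CD27_KO members (2.41 to 9.65), the latter below the 7.20% seen in Ccr7 or Dapl1 cells. Izumo1r gave 93 and 30 UMIs (169 and 71.7 CPM), at -1.24 (-1.88 to -0.63) against -0.32 in other cells. Ikzf2, the gene of the Treg-associated factor Helios, gave 151 and 53 UMIs, at -1.11 (-1.59 to -0.65) against -1.33. Eea1 (-1.05) and Snrpb (-0.97), a splicing factor gene, were lower in members while other cells were at 0.14 and -0.14.

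The naive gene Lef1 (-0.60, -1.05 to -0.17) was lower too, but was not apart once all members were counted. It was at -0.56 in other cells. S1pr1, at 0.00 (-0.25 to 0.24), and Klf2, at -0.21 (-0.45 to 0.02), did not stand apart in members, where other cells were at -0.79 and -0.89. The other cells pool groups whose shares differ between the libraries, and the difference was not tested. In Ccr7 or Dapl1 cells neither gene was lower in CD27_KO: S1pr1 had 528 and 664 CPM and Klf2 796 and 880.5. Both genes were lower in CD27_KO within each remaining group outside the members. S1pr1 had 429 and 220.5 CPM in unmarked, 246 and 129 in Foxp3 and 189 and 135 in Il1rl1 cells. In Ccl5 or Nkg7 cells it had 214 and 140. Klf2 had 620 and 320, 332 and 159, 328 and 192, and 359 and 214 CPM in the same order. The remaining named lower genes, Ptms, Dad1, Tspan32, Ifi27 and Capg, lay between -0.77 and -0.62.

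Counts by list are to be read against 5.33% higher and 2.2% lower over all genes. Of 10 memory and stem-like genes, none was higher and 2 were lower (Lef1 among them, median -0.14). Of 7 follicular helper-like genes, 2 were lower (Tox and Izumo1r, median -0.02), and of 9 costimulation, inhibition and anergy genes, 2 were higher (Cd226 and Ikzf1) and 1 lower (Tox, median 0.13). Type 1 genes had 2 of 4 higher (Runx3 and Id2), type 2 genes 1 of 2 (Gata3) and type 17 genes 1 of 2 (Rora). Of 4 Treg-associated genes, 2 were lower (Ikzf2 and Capg). No gene was apart among 11 of T cell receptor signalling, 6 of survival, 5 of TRAF and NF-kB signalling, 5 of glycolysis, 4 of the TNF receptor family and 5 near Cd27 on chromosome 6, nor among 4 SLAM family, 4 chemokine receptor and 3 insulin and AKT genes. Single genes were higher in oxidative phosphorylation (Ndufs6, 1 of 19), residency (Runx3, 1 of 6), cytokine receptors (Ifngr1, 1 of 5), dissociation (Zfp36, 1 of 10), interferon response (Ly6a, 1 of 3) and cell cycle (Hmgb2, 1 of 2), and Tspan32 was lower among 6 CD200 and tetraspanin partners. No fatty acid gene was measured.

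**Figure D4:**
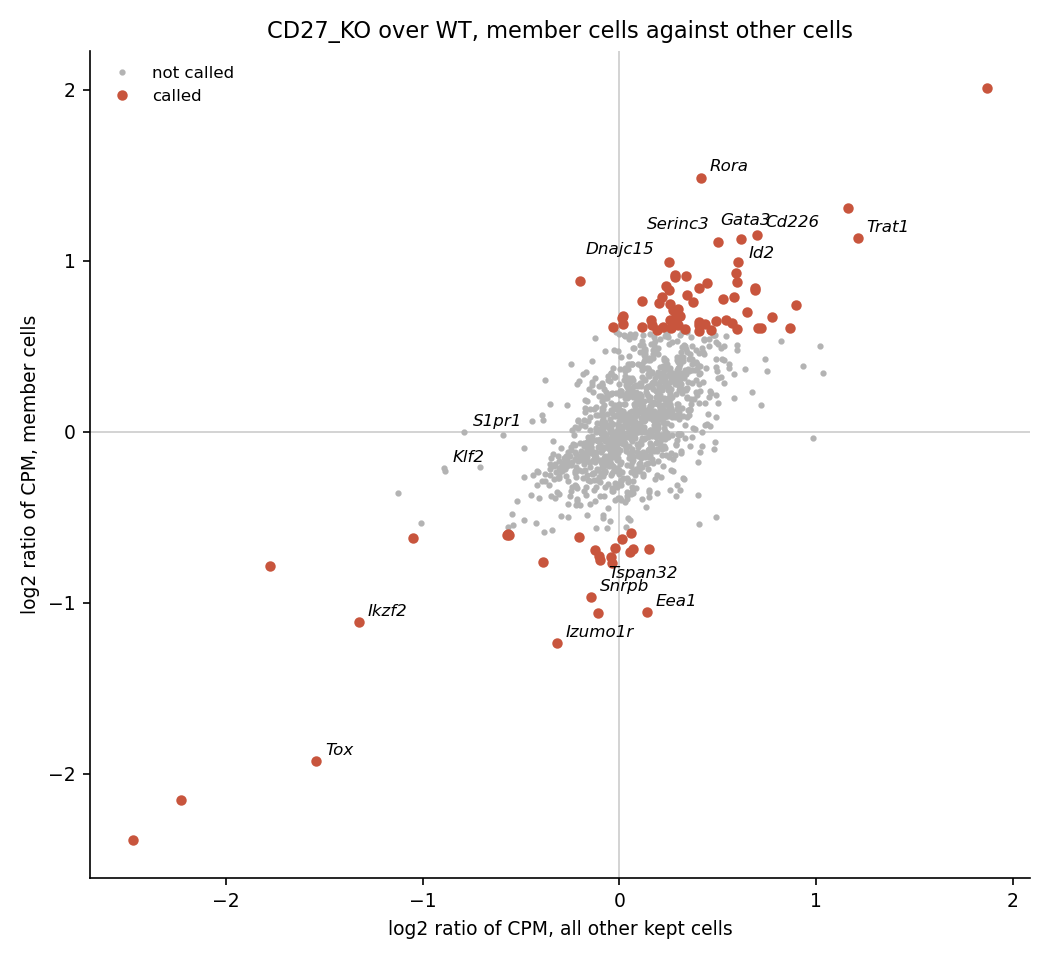
Each point is 1 of the 1183 measured genes, plotted by its log2 ratio of CPM in CD27_KO over WT in all other kept cells (x axis) and in member cells (y axis), without cells of other types. Red points are the 63 genes higher and the 26 lower by 1.5-fold or more in CD27_KO members; Rora is far above 0 on the y axis and Tox and Ikzf2 are below 0 on both axes.

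The 21 cells of other types decided the most extreme differences of the full member set. Fabp4, a fatty acid carrier gene of endothelial cells, adipocytes and macrophages, was at 5.90 in CD27_KO over WT members, on 393 UMIs of which 248 lay in 1 cell. Without those cells it had 6 WT UMIs and none in CD27_KO. Dcn, the gene of the matrix protein decorin, was at -4.35 on 558 WT and 20 CD27_KO UMIs, and C3 (-3.88) and Col3a1 (-3.24) went the same way; all 3 genes had no UMI without those cells. One of 2 features that share the symbol Ccl21a, a lymphoid chemokine, had 803 UMIs in WT members, 802 of them in 1 cell. Without the 21 cells, the markers Csf1r, C1qa, Ms4a1, Col1a1, Pdgfra and Adipoq were at 0 in members of both libraries. Most of these genes were among those used to pick the 21 cells, so their absence follows in part from that choice. In WT members Siglech, Cd79b, Ebf1, Lyz2 and Cd68 were still detected. The other markers of those lists summed to 57.4 to 131 CPM per list for B, plasmacytoid dendritic and myeloid cells, where unmarked cells had 96.6 to 158. Stromal and endothelial markers summed to 78.1 and 47.8 CPM in WT and CD27_KO members, against 67.6 and 35.7.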

How the data were processed

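Per the file headers and the submitters' processing notes, the authors used Cell Ranger 6.1.1 and mm10, and deposited UMI counts of called cells for 32285 genes. Kit versions differ between the design text and the sample protocol, and the former mentions a CD70 transgene cross that is not among these samples. The WT library held 6398 barcodes and 16628623 UMIs, the CD27_KO library 6893 and 20191704. Barcodes under 500 genes or over 10% mitochondrial UMIs were dropped, 60 and 40 in number. Libraries shared 12 barcode sequences, none in a member. No doublet caller was run and no cell was removed as a doublet; leaving out cells over 10000 UMIs is an alternative.

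UMIs were summed per library and cell group and scaled to CPM with Python 3.11.15, numpy 2.4.6, pandas 2.3.3 and scipy 1.17.1. Shares have Clopper-Pearson intervals, and ratios have intervals from the binomial split of the UMIs, which take each UMI as independent. The steps were tested on simulated data. Ratios against 0 used a floor of 3 counts. Cells fell into groups in this order: Foxp3, Il1rl1, Ccl5 or Nkg7, Ccr7 or Dapl1, members, unmarked. Genes were named by rule: the 12 furthest in each direction between libraries, the 15 furthest in each direction against unmarked cells, up to 4 of each of 24 lists, and the genes of the rule with Cd27, Cd70, Cd4 and Tnfrsf8. Ribosomal, mitochondrial, receptor segment, sex-linked and unnamed genes were left out of this naming. Gene positions are from GENCODE vM21. The members and lists were chosen with earlier results of these data known. The genes of the comparison with Ccr7 or Dapl1 cells, those followed by share of cells, and the non-T genes and Ccl21a were named after their values were seen. Some genes that this rule picks are not reported here.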

Additional observations from a re-analysis of the deposited data

Results flagged for a closer look

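Of the genes named, 4 were flagged for going opposite ways in members and in other cells when all members were counted. All 4 are genes of non-T cells, and none of these differences was tested. Eea1 also had opposite signs, as given above without cells of other types, but was not flagged. Over all members, CD27_KO was above WT for Fabp4 (log2 5.90), the MHC class II gene H2-Aa (2.25), its invariant chain gene Cd74 (2.14) and the myeloid and NK cell adaptor gene Tyrobp (1.93), while the other kept cells were lower in CD27_KO (-1.41, -1.16, -1.08 and -0.86 in that order). Much of this lay in few cells: the top CD27_KO cell of each gene held 248 of 393 Fabp4, 130 of 203 Cd74 and 68 of 94 H2-Aa UMIs. The same 4 genes were lower in members than in unmarked cells of WT (Fabp4 -4.59, Tyrobp -1.77, Cd74 -1.37 and H2-Aa -1.29) and higher than in those of CD27_KO. Without the cells that carry 4 or more marker genes of other cell types, each of the 4 had at most 6 UMIs in the members of a library.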

How the results depend on the processing

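With 1 library per group no result could be set against replicates, and depth (member medians of 1791.5 and 2266 UMIs per cell) leaves most genes unmeasured. No paired analysis was possible because there is 1 library per group and the labels give no replicate numbers. The ratio of member shares lay between 0.506 and 0.647 in every alternative, while the shares were 3.66% (WT) and 1.85% (CD27_KO) with cells thinned to 1300 UMIs, 1.48% and 0.759% with at least 3 markers, 20.1% and 12.7% of cells without barred transcripts, and 3.84% in WT with minima of 800 genes and a limit of 5% on mitochondrial UMIs.

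Counts of genes apart follow the thresholds. Against the 96 higher and 55 lower genes of CD27_KO over WT members, they were 284 and 184 at a minimum of 50 UMIs, 32 and 16 at 200, 3729 and 2696 at 1, 16 and 31 at 2-fold, 37 and 17 after thinning, 18 and 32 with at least 3 markers, 63 and 23 without cells with 2 or more genes of other types, 63 and 26 without those with 4 or more (chosen after seeing the data), and 63 higher, with 74 lower, when centred on the median gene. Against the 21 higher and 44 lower in members over unmarked cells, they were 58 and 80 at 50 UMIs, 7 and 20 at 200, 2946 and 307 at 1, 2 and 15 at 2-fold, 51 and 81 with at least 3 markers, 11 and 74 without the top cell of each gene, and 8 higher after thinning. Against the 95 higher and 15 lower over Ccr7 or Dapl1 cells, they were 240 and 29 at 50 UMIs, 37 and 9 at 200, 2239 and 201 at 1, 26 and 4 at 2-fold, 47 and 7 after thinning, 46 higher with at least 3 markers, 56 and 38 when centred, and 43 and 67 with ribosomal and mitochondrial genes out of the totals. List genes apart in CD27_KO over WT, 18 higher and 9 lower, were 16 lower at 50 UMIs, 10 and 3 at 200, 80 and 71 at 1, 7 and 5 at 2-fold, 7 and 2 after thinning, 5 higher with at least 3 markers, and 9 and 11 higher without cells with 2 or 4 genes of other types.

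With at least 3 markers, which leaves fewer cells, Gadd45b (-2.16), Nr4a1 (-1.004) and Tcf4 (-0.30) turned to lower in CD27_KO members, Ptms to lower in CD27_KO members than in unmarked cells (-0.32), and Slpi to lower in both libraries (-3.32 and -0.37). Slpi was also lower in CD27_KO (-1.10) without its top cell. The causes of these changes were not tested. Named genes with under 20 UMIs under an alternative were given no value there.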
